A study of Mus musculus with 3143 samples.

Results

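The unfolded protein response is described here through 10 genes, Hspa5, Ddit3, Atf4, Xbp1, Herpud1, Dnajb9, Sdf2l1, Pdia4, Trib3 and Creld2, chosen by symbol from the 46517 gene rows of a table of raw read counts. All 10 symbols were found. The table holds 3143 cells, taken singly from kidney glomeruli of adult C57BL/6 mice and read by Smart-seq2, a plate method that copies full-length RNA of 1 sorted cell per well without molecular identifiers. Each cell carries the treatment label IgAN, short for IgA nephropathy, in which deposits of IgA build up between the glomerular capillaries, or the label Control. All cells had been freed with collagenase IV, pronase E and DNase I and sorted as positive for a CellTracker dye. The 1798 IgAN cells came from 6 plates, numbered 313, 315, 316, 318, 322 and 325, and the 1345 Control cells from 4, numbered 314, 317, 321 and 326. How the IgAN model was made, and from how many animals the cells came, is not given in the sources used here.

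The unfolded protein response is the reaction of a cell to proteins that fail to fold in the endoplasmic reticulum (ER). Sensors in the ER membrane, IRE1, PERK and ATF6, switch on transcription factors that raise chaperones, the machinery that removes misfolded proteins, and, when stress lasts, genes that favour cell death. IRE1 splices Xbp1 mRNA, PERK slows translation while it lets ATF4 be made, and ATF6 is cut to release a transcription factor. Cells with a heavy secretory or membrane load, such as podocytes, which build the slit diaphragm and part of the basement membrane, and plasma cells, which secrete antibody, depend on these pathways. Read counts per gene do not tell the spliced form of Xbp1 from the unspliced one, nor do they measure protein.

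The promoters of 4 members are shown because they hold, or lack, the short elements through which ATF6, XBP1 and ATF4 are known to act. Each run covers 250 bases before to 50 bases after the gene's start as RefSeq gives it on GRCm38.p6, read 5′ to 3′ on the gene's strand, and capitals mark matches to the 4 longer elements described below.
Hspa5: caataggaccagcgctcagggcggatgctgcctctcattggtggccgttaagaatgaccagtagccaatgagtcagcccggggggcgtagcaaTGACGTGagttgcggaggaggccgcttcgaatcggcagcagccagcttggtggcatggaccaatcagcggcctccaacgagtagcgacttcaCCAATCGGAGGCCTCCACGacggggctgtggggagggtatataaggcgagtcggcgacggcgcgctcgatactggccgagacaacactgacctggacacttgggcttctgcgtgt
Creld2: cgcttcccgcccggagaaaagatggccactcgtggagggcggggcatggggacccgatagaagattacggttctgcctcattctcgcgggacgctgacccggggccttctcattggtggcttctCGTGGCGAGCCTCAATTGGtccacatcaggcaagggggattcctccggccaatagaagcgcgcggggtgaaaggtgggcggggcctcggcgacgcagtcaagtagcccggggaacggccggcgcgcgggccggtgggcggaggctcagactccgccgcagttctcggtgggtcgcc
Herpud1: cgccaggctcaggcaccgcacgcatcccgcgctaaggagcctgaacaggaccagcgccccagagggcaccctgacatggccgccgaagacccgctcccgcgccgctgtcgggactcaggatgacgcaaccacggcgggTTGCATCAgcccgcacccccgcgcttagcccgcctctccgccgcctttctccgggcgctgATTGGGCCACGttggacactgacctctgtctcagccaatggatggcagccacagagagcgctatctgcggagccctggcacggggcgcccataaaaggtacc
Pdia4: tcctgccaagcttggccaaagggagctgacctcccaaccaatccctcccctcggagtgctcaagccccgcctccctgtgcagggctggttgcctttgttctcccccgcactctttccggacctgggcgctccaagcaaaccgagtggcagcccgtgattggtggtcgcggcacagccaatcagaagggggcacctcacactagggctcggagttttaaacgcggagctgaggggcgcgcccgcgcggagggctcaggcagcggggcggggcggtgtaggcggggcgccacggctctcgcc
These windows lie at chr2:34771840-34772139 on the plus strand for Hspa5, chr15:88819396-88819695 on the plus strand for Creld2, chr8:94386179-94386478 on the plus strand for Herpud1 and chr6:47813463-47813762 on the minus strand for Pdia4.

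Both strands of all 10 promoters were searched. The ER stress response element, which is CCAAT and CCACG with 9 bases between them, was found in Hspa5, at -65 to -47 with the start base as 0, and on the opposite strand in Creld2, at -126 to -108. It stood in 35 of 27025 mouse promoters of the same length (0.13%). Its shorter relative, ATTGG and CCACG with 1 base between them, was found in Herpud1, at -52 to -42, and in 10 promoters in all (0.037%).

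The core TGACGTG of the element bound by ATF6 and XBP1 was found in Hspa5, at -157 to -151, and in 1.99% of promoters. The element TGATGNAA, read by ATF4 with its partners, was found on the opposite strand in Herpud1, at -112 to -105, and in Trib3, at 14 to 21, and in 4.06% of promoters. The first 2 elements are made of a CCAAT box and CCACG, so these motifs overlap; CCAAT alone stood in 8 of the 10 members and in 37.9% of promoters, and CCACG in 7 of the 10 and in 32.7%. Pdia4 had CCAAT and CCACG but none of the 4 longer elements in this window. A match is a run of letters and not a measured binding site.

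Cells held 50365 to 1135415 reads in genes, with a median of 231222 reads in IgAN cells and 241543 in Control cells. Depth was greatest on plate 322, at a median of 396718 reads per cell. With no animal named in the labels, each group counts as 1 sample, no test was run and no p-value is given. Since each plate holds cells of 1 group, plate and group cannot be told apart. The spread between plates with at least 10 cells of a class is given in place of an error, and intervals of summed reads are exact Poisson 95% intervals that cover counting error only. Cells were clustered and each class was named from its markers: 995 IgAN and 614 Control cells were endothelial-like, 39 and 146 podocyte-like, 115 and 51 mesangial-like, 146 and 85 proximal tubule-like, 193 and 103 macrophage or dendritic-like, 93 and 128 T or NK cell-like, 26 and 117 B cell-like, 72 and 46 distal tubule or collecting duct-like and 49 and 24 parietal epithelial-like. No marker list for monocytes was used, and the macrophage or dendritic-like class includes monocyte-like cells. Of its cells 165 lay in a cluster led by Treml4, Cd300e and Adgre4, genes known from non-classical monocytes. Another 97 lay in a cluster led by Cd209a, Fn1 and F13a1, and 34 in one led by C1qc, C1qa and C1qb. In podocyte-like cells all 10 podocyte markers were at 10 CPM (reads of the gene per 1e6 reads in genes) or more. Reads in nuclear copies of mitochondrial genes took 0.151% of reads in IgAN and 0.00219% in Control endothelial-like cells.

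All members but Trib3 were widely transcribed. Over all 3143 cells, and per kilobase of exon so that genes of different length can be set side by side, Hspa5 stood highest at 202 CPM per kilobase, ahead of Atf4 at 164, Herpud1 at 151 and Xbp1 at 107. Pdia4 followed at 89.6, Sdf2l1 at 60.5, Creld2 at 58.7, Dnajb9 at 58.6 and Ddit3 at 49.4. Trib3, a pseudokinase induced by ATF4 and CHOP, was at 1.49.

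Hspa5 (chromosome 2, 34771970 to 34777547, GRCm38) encodes BiP, the main ER chaperone of the HSP70 family and the protein that holds the sensors inactive. It was at 854 CPM over all cells. Trib3 (chromosome 2, 152337422 to 152344032) had 2585 reads in 57 cells, of which 32 cells had a single read. Its highest level, 1731 CPM, was in a Control neutrophil-like cell.

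The first comparison asks where in the glomerular fraction each member is transcribed. By reads summed over plates, podocyte-like cells stood highest of 9 classes for Hspa5, Pdia4 and Creld2, which encode ER chaperones and folding factors. Macrophage or dendritic-like cells, a class that includes monocyte-like cells, stood highest for Xbp1, Sdf2l1 and Trib3. B cell-like cells stood highest for Herpud1, Atf4 and Ddit3, and endothelial-like cells for Dnajb9. The place of Trib3 rests on 407 reads in 5 IgAN cells. For Pdia4 and Herpud1 the lead over the next class exceeded the plate SD, and for Hspa5, Creld2, Xbp1, Sdf2l1, Atf4, Ddit3 and Dnajb9 it did not. By the mean of plates the order turned for Creld2 (159.7 CPM in podocyte-like and 192 in parietal epithelial-like cells), Ddit3 (161 in B cell-like and 166 in parietal epithelial-like cells) and Dnajb9 (178 in endothelial-like and 188 in B cell-like cells). It also turned for Trib3 (6.79 CPM in macrophage or dendritic-like and 10.1 in parietal epithelial-like cells). For reference, 10.9% of 14656 genes had their highest level in podocyte-like cells, 8.95% in macrophage or dendritic-like cells, 12.1% in B cell-like cells and 8.22% in endothelial-like cells. The 9 classes are those with at least 3 plates of 10 cells, a limit chosen after seeing the data. The limit left out 20 neutrophil-like cells, which otherwise stood highest for Ddit3 (213 CPM), Dnajb9 (196 CPM) and Trib3 (95.5 CPM, from 1 cell).

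Hspa5 on the 6 plates with podocyte-like cells ranged over 1174, 1203, 1267, 1366, 1684 and 1867 CPM, with a mean of 1427 ± 284 CPM (SD, n = 6 plates). Endothelial-like cells had 483 to 1028 CPM on 10 plates, with a mean of 744 ± 164 CPM (SD). No endothelial plate reached the lowest podocyte plate. On each of the 6 plates Hspa5 was higher in podocyte-like than in endothelial-like cells, by a median log2 of 0.88 (0.60 to 1.39). Summed over all plates the next class, parietal epithelial-like cells, was at 1059 CPM, against 1492 CPM in podocyte-like cells, and their plate means did not differ by more than the plate SD. Macrophage or dendritic-like cells were at 1051 CPM, T or NK cell-like cells at 1005 and proximal tubule-like cells, the lowest of the 9, at 674.

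Pdia4 (chromosome 6, 47796141 to 47813430), a protein disulfide isomerase that forms and rearranges disulfide bonds, had the largest positive median difference within plates between podocyte-like and endothelial-like cells of any member. Podocyte-like cells had 361, 455, 613, 741, 832 and 894 CPM on the 6 plates, while parietal epithelial-like cells stood next at 332 CPM in sum and lay below by more than the plate SD. Within plates the difference from endothelial-like cells was a median log2 of 1.98 (1.31 to 2.43), with the podocyte-like cells higher on 6 of 6. The contrast was also seen cell by cell: the quartiles of Pdia4 were 173, 608 and 1058 CPM over podocyte-like cells and 0, 8.21 and 264 CPM over endothelial-like cells. On each plate that held both, Pdia4 and Hspa5 were also higher in podocyte-like than in macrophage or dendritic-like (6 of 6 plates), T or NK cell-like (6 of 6), mesangial-like (5 of 5), proximal tubule-like (4 of 4) and B cell-like cells (4 of 4). For Hspa5 the classes were nearly level on IgAN plates 313 and 316. There podocyte-like cells had 1174 and 1203 CPM, macrophage or dendritic-like cells 1171 and 1164 CPM, and parietal epithelial-like cells 1144 and 1192 CPM.

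Creld2 (chromosome 15, 88819646 to 88826683), an ER-resident disulfide isomerase-like protein, was at 171 CPM in podocyte-like cells, 137 in parietal epithelial-like and 117 in B cell-like cells, and the first gap was within the plate SD. Against endothelial-like cells, at 72.4 CPM, it was higher on 6 of 6 plates by a median log2 of 1.30. Sdf2l1 (chromosome 16, 17130138 to 17132383), which helps BiP keep clients soluble, was at 165 CPM in macrophage or dendritic-like cells and 144 in podocyte-like cells. T or NK cell-like cells came next at 81.7 CPM, below podocyte-like cells by more than the plate SD.

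Xbp1 (chromosome 11, 5520659 to 5525893), the transcription factor of the IRE1 branch, was at 693 CPM in macrophage or dendritic-like, 493 in distal tubule or collecting duct-like and 489 in podocyte-like cells. Endothelial-like cells had 301 and proximal tubule-like cells 211. Macrophage or dendritic-like cells exceeded endothelial-like cells on 10 of 10 plates for Xbp1 (by a median log2 of 1.25) and for Sdf2l1 (1.67). The quartiles of Xbp1 over macrophage or dendritic-like cells were 62.9, 510 and 981 CPM.

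Herpud1 (chromosome 8, 94386438 to 94395377), a membrane protein of ER-associated degradation, stood apart in B cell-like cells. It was at 1165 CPM there, against 473 CPM in macrophage or dendritic-like cells, the class next in order and lower by more than the plate SD. The 4 plates with 10 B cell-like cells, all Control, had 790, 982, 1106 and 1220 CPM, and the quartiles over cells were 248, 1178 and 1815 CPM. On those plates Herpud1 was higher in B cell-like than endothelial-like cells by a median log2 of 1.90 (1.60 to 2.39). Xbp1 had quartiles of 0, 9.32 and 27.8 CPM in the same B cell-like cells, so its reads there came from a minority. Of the 143 B cell-like cells, 33 had at least 3 of 7 plasma cell markers.

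Ddit3 (chromosome 10, 127290774 to 127296288), which encodes CHOP, the factor tied to cell death under lasting stress, was at 169 CPM in B cell-like, 141 in T or NK cell-like, 132 in macrophage or dendritic-like and 121 in parietal epithelial-like cells. Podocyte-like cells had 95.9 CPM and mesangial-like cells, the lowest, 54.8. In B cell-like cells Ddit3 was above endothelial-like cells on 4 of 4 plates (median log2 1.65). Ddit3 shares 68 of its exon bases (3.97%) with Mars and 13 with Gm4189 on the opposite strand, and whether strand was used in counting is not given in the sources used here, so reads there cannot be told apart.

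Atf4 (chromosome 15, 80255184 to 80257541), the transcription factor of the PERK branch, was at 649 CPM in B cell-like, 443 in endothelial-like and 198 in distal tubule or collecting duct-like cells. Dnajb9 (chromosome 12, 44205559 to 44210326), a BiP cochaperone known as ERdj4 that returns IRE1 to its inactive form, was at 178 CPM in endothelial-like, 172 in B cell-like and 60.5 in mesangial-like cells. These 2 members were lower in podocyte-like than in endothelial-like cells on 6 of 6 plates, by median log2 values of -0.61 for Atf4 and -0.85 for Dnajb9. Mesangial-like cells were lower than endothelial-like cells on 9 of 9 plates in Herpud1 (median log2 -1.59) and Dnajb9 (-1.89).

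**Figure D1:**
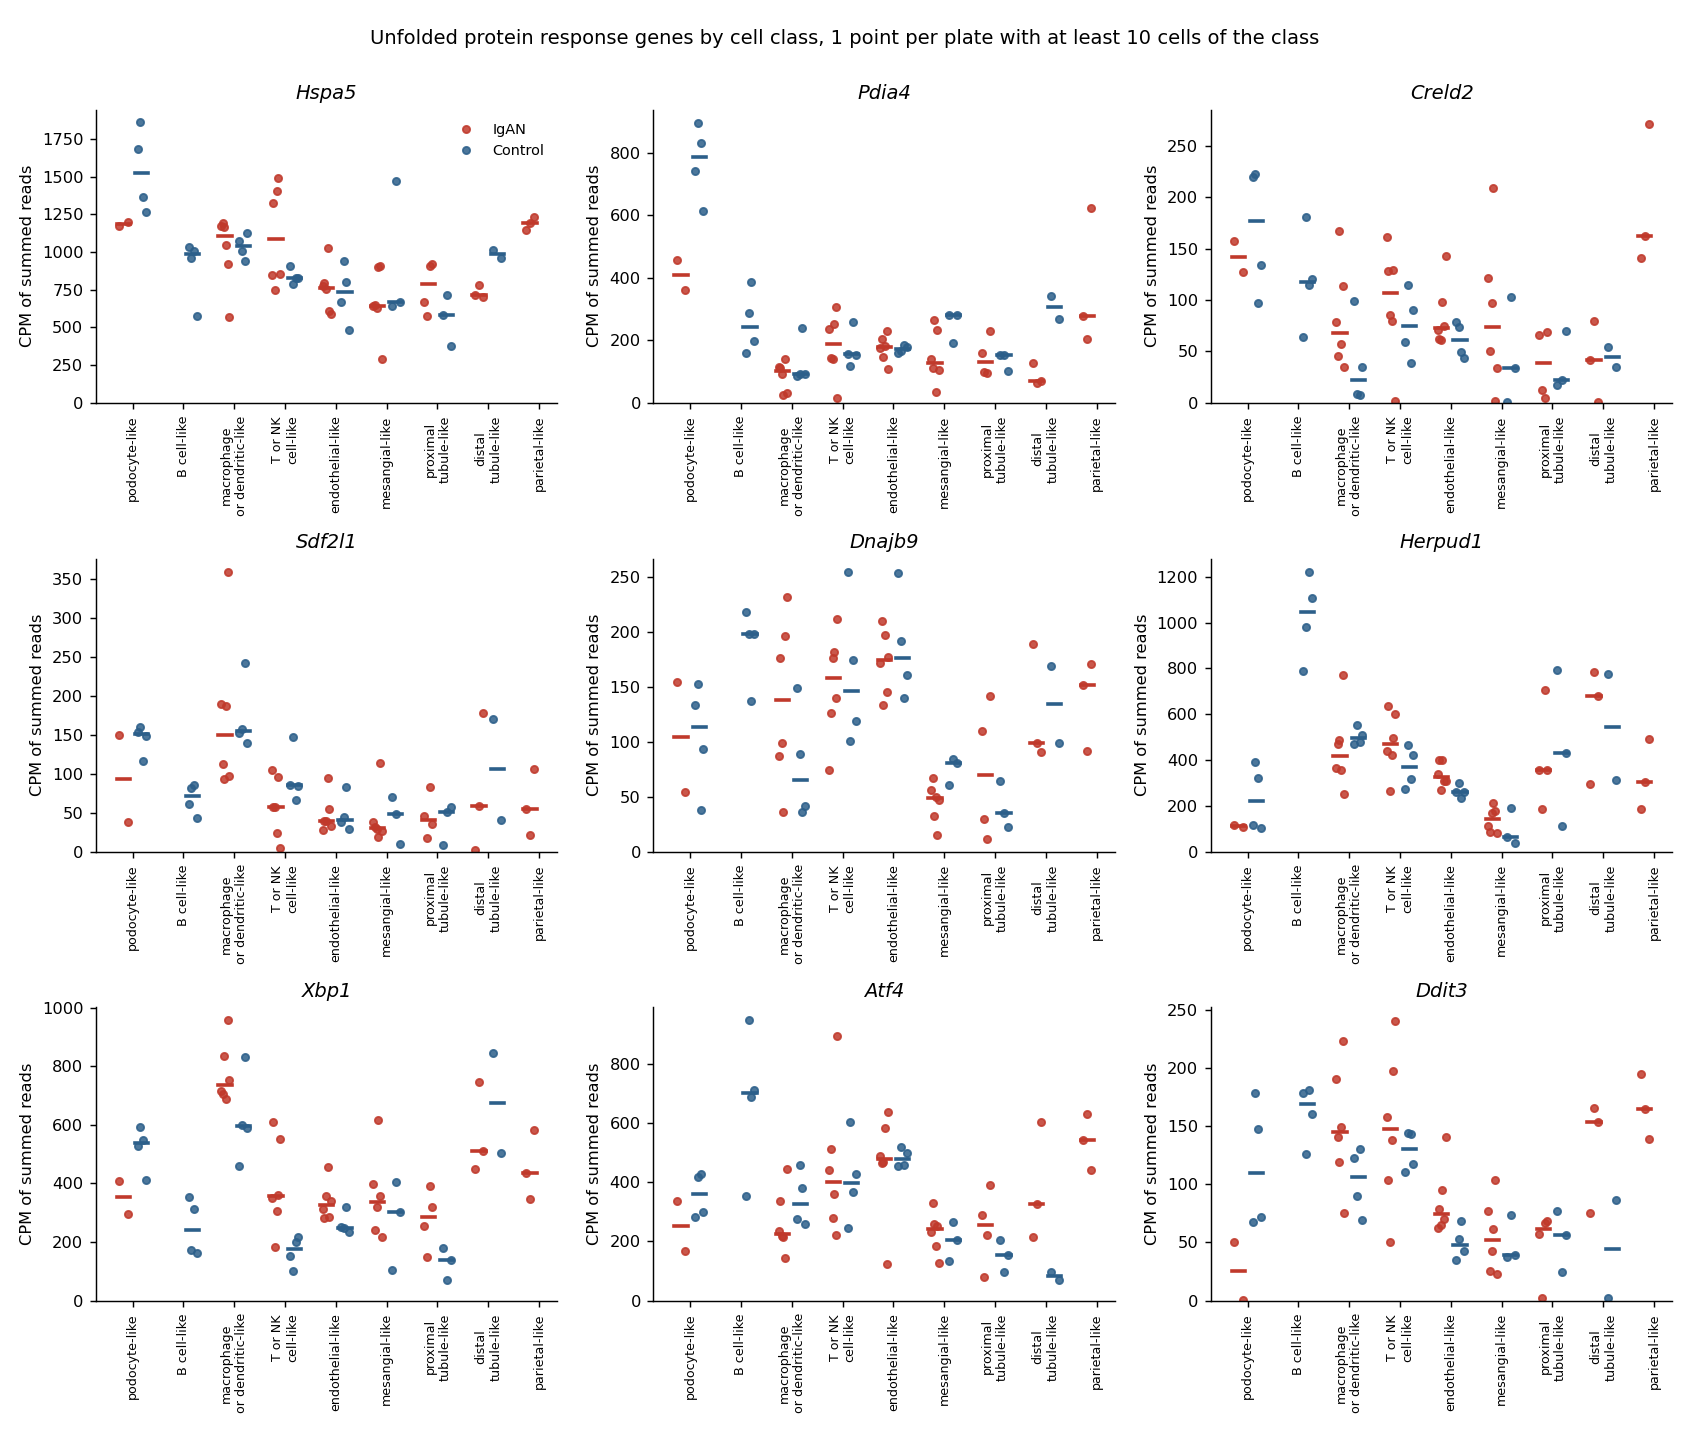
Levels of 9 members (CPM of summed reads, vertical axes starting at 0) in 9 cell classes; each point is a plate with at least 10 cells of the class, IgAN in red to the left and Control in blue to the right, and the bar is the median. Podocyte-like cells stand above endothelial-like cells in Hspa5 (1174 to 1867 against 483 to 1028 CPM) and Pdia4, and B cell-like cells stand apart in Herpud1 (790 to 1220 CPM).

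Among related genes, the high chaperone level of podocyte-like cells extended to most of a list of 20 ER chaperones and folding enzymes. Of these, 17 were higher in podocyte-like than in endothelial-like cells and 9 by a log2 of 1 or more, with a median of 0.88, while over 10820 genes 17.9% were higher by that much and the median was -0.003. The most abundant were P4hb, the beta subunit of prolyl 4-hydroxylase and a disulfide isomerase (1618 CPM in podocyte-like and 761 in endothelial-like cells), Calr (1176 and 582), Hsp90b1, the ER member of the HSP90 family (1118 and 641), and Pdia6 (884 and 323). Hyou1, a large ER chaperone, was at 157 and 36.9 CPM, and Sil1, a nucleotide exchange factor of BiP, at 158 and 42.6. Over all 9 classes, podocyte-like cells held the highest level of 12 of the 20 chaperones (60.0%), 7 of 14 genes of ER-associated degradation (50.0%) and 7 of 18 genes of ER entry and transport (38.9%), beside 10.9% of all genes. The list values come from reads summed over groups and plates and were not compared within plates. Of 185 podocyte-like cells 146 were Control, while of 1609 endothelial-like cells 995 were IgAN, so class is partly mixed with group and plate here.

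Degradation genes were higher in 11 of 13, with 6 at a log2 of 1 or more and a median of 0.95; Vimp, which anchors the p97 ATPase, was at 258 CPM in podocyte-like and 43.3 CPM in endothelial-like cells, Syvn1, the ubiquitin ligase HRD1, at 254 and 137, Os9, a lectin that selects its substrates, at 224 and 107, and Derl1 at 221 and 166. ER entry genes were higher in 17 of 18, beside 49.9% of all genes, with a smaller median of 0.49. Only 1 of the 18 (5.56%) reached a log2 of 1, beside 17.9% of all genes. The most abundant was the translocon subunit Sec61a1 (716 and 379.5 CPM). The sensors and eIF2alpha kinases had a median of 0.06, with 5 of 8 higher. Targets of ATF4 and CHOP had a median of -0.49 and 7 of 17 higher, and they diverged widely. Nupr1, a small stress-induced nuclear protein, was at 1091 CPM in podocyte-like and 47.4 in endothelial-like cells, while the transcription factor Atf3 was at 183.5 and 987 CPM and Ppp1r15a, which ends the eIF2alpha signal, at 85.6 and 651 CPM.

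Cytosolic heat shock genes ran the other way, with 2 of 11 higher in podocyte-like cells and a median log2 of -1.44. Hspa1a was at 42.2 CPM in podocyte-like and 460.0 in endothelial-like cells and Hspb1 at 98.5 and 625, while Hsp90ab1 was at 1559 and 1693. Of the 11, 7 had their highest level of the 9 classes in endothelial-like cells (63.6%), beside 8.22% of all genes. Immediate early genes, which dissociation is also known to induce, had 1 of 12 higher and a median of -1.81, with Fos at 938 and 3713 CPM. The part of dissociation in these differences was not tested.

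**Figure D2:**
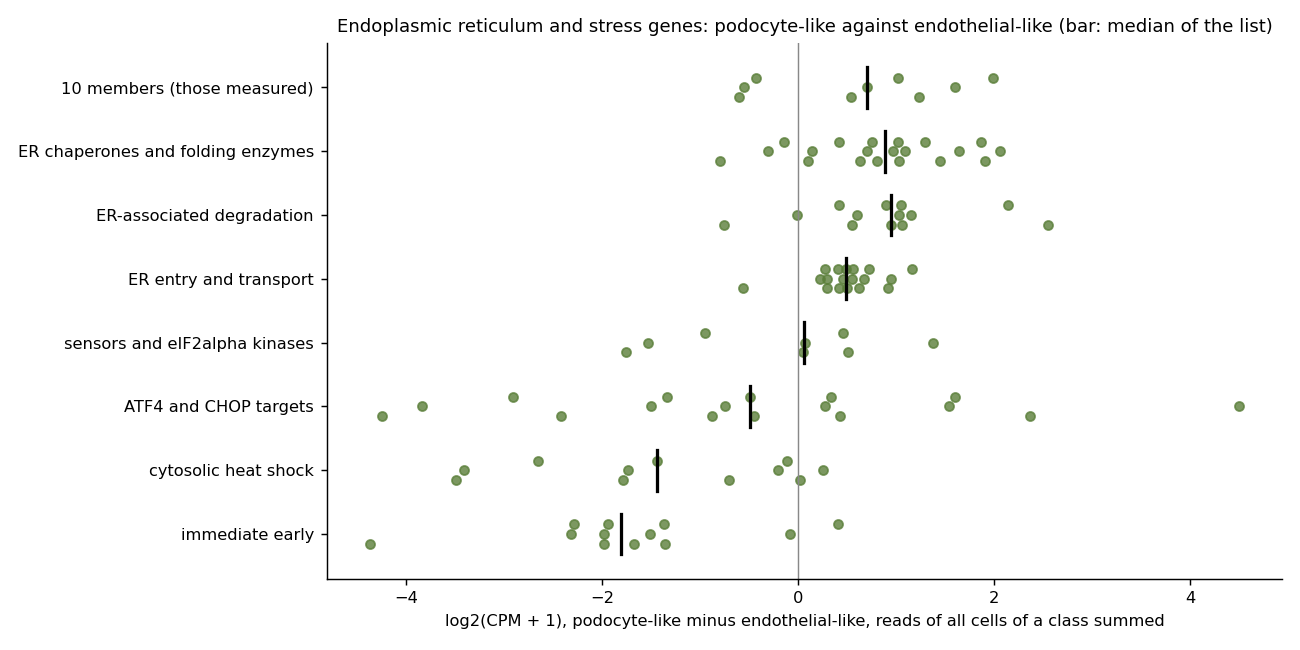
Difference in log2(CPM + 1) between podocyte-like and endothelial-like cells, both groups summed, for the members and 7 gene lists; each point is a gene and the bar is the list's median. ER chaperones (median 0.88) and degradation genes (0.95) lie mostly above 0, cytosolic heat shock (-1.44) and immediate early genes (-1.81) mostly below it.

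Correlations between members were weak. Over the 185 podocyte-like cells Hspa5 correlated with Pdia4 at a Spearman rho of 0.409 and with Xbp1 at 0.374. Over the 1609 endothelial-like cells no pair of members exceeded 0.162. Cells share their plate and differ in depth, and sparse reads weaken such values.

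Over 65 sums of a class on a plate, which share the 10 plates, Ddit3 and Atf4 correlated at a Pearson r of 0.507, Hspa5 and Xbp1 at 0.478, and Herpud1 and Pdia4 at -0.188. The genes most like each member over those sums, among 11351 genes, were Gm9888 (r 0.529), Pkm (0.520) and Ppie (0.520) for Hspa5, Rab3b (0.650), Hspb8 (0.644) and Nell2 (0.642) for Pdia4, and BC003965 (0.693), Wdr48 (0.639) and BC005624 (0.606) for Creld2. For Sdf2l1 they were Tspan13 (0.554), Mapkapk3 (0.548) and Lpcat2 (0.539), for Xbp1 Pygl (0.664), Nupr1 (0.616) and Cst3 (0.587), and for Herpud1 Bhlhe40 (0.667), Rps19 (0.666) and 0610040F04Rik (0.643). For Dnajb9 they were Arl4a (0.641), Ppp1r15a (0.631) and Rpl22l1 (0.603), for Atf4 Sertad1 (0.694), H3f3a (0.640) and Rps12 (0.625), and for Ddit3 Nsa2 (0.661), Csnk1d (0.628) and Edc3 (0.616). These values are descriptions.

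The second comparison asks how IgAN cells differed from Control cells within a class. A member counts as measured in a class if, in IgAN or in Control, it reached 10 CPM and 10% of cells had a read. It was called lower or higher where every IgAN plate lay on 1 side of every Control plate, and it met the size rule where the log2 of CPM + 1, IgAN minus Control, was also at least 1 in size. The 9 members other than Trib3 were measured in each of 6 classes. In podocyte-like cells 4 members were lower in IgAN without plate overlap, and in each of the other 5 classes 0 of 9 members were called.

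In podocyte-like cells, 7 of the 9 members had negative differences, with a median log2 of -0.32 beside -0.06 over all 9547 measured genes. Hspa5, Pdia4, Xbp1 and Ddit3 were lower in IgAN with no overlap between plates, 4 of 9, beside 15.1% of all measured genes called lower and 9.61% called higher. Only plates 313, with 15 cells, and 316, with 10 cells, stand for IgAN, so 14 of its 39 cells lie on plates with 2 to 6 cells that the rule leaves out. Values on those small plates, 315, 318, 322 and 325, were scattered: Hspa5 was at 1448, 1548, 1188 and 861 CPM, Pdia4 at 1373, 707, 611 and 5.08 CPM, Xbp1 at 719.5, 331.5, 438 and 327 CPM and Ddit3 at 1.23, 219, 3.38 and 17.8 CPM. Each of the 4 called members thus had at least 1 small IgAN plate within or above the Control range, and with these plates counted none of the 4 would be free of overlap.

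Hspa5 was at 1174 and 1203 CPM on the IgAN plates and at 1684, 1867, 1366 and 1267 CPM on the Control plates. In sum it was at 1246 CPM (interval 1225 to 1267) in IgAN and 1552 CPM (1540.0 to 1563) in Control, log2 -0.32. Both IgAN plates lay just under the lowest Control plate, 326. Pdia4 was at 455 and 361 CPM on the IgAN plates and 741, 894, 832 and 613 CPM on the Control plates, or 547 CPM (533 to 561) and 754 CPM (746 to 762) in sum, log2 -0.46. The lowest Control plate was again 326, above both IgAN plates.

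Xbp1 was at 408 and 297 CPM on the IgAN plates and at 526, 593, 547 and 413 CPM on the Control plates, or 396 CPM (384 to 408) and 512 CPM (505 to 518.5) in sum, log2 -0.37. IgAN plate 313 and Control plate 326 were close to each other. Ddit3 was at 50.6 and 0.382 CPM on the IgAN plates and 67.7, 179, 147 and 71.6 CPM on the Control plates, or 49.4 CPM (45.3 to 53.8) and 107 CPM (104 to 110.4) in sum, log2 -1.10. It was the only member that met the size rule, which 6.35% of all measured genes met as lower and 3.73% as higher. Its size was under 1 without IgAN plate 316 (-0.71), Control plate 317 (-0.79) or IgAN plate 322 (-0.86), and at -0.99 without IgAN plate 315 or Control plate 321, while it was -2.27 without IgAN plate 318. With scaling by the median of ratios the plates of Hspa5 and of Xbp1 overlapped, and those of Xbp1 also did without the 3 podocyte-like cells that carried markers of another class at 25% of its level. The remaining members overlapped between groups: Atf4 (-0.37), Creld2 (-0.18), Sdf2l1 (-0.17), Herpud1 (0.08) and Dnajb9 (0.38). Trib3 had 0 reads in IgAN, where 3 reads are worth 0.279 CPM, and 107 reads in 2 Control cells.

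The other chaperones of podocyte-like cells were mixed, with a list median of -0.19 and 3 lower and 1 higher of 20 without overlap. Over all measured genes of this class 15.1% were called lower and 9.61% higher. The counts for the chaperone, degradation and ER entry lists are therefore not read as a result about those lists. Calr was lower, at 879 CPM in IgAN and 1249 CPM in Control (log2 -0.51), with the ER stress factor Manf and the prolyl isomerase Ppib. Hyou1 was higher, at 247 and 135 CPM (0.87), while P4hb was at 1645 and 1612 CPM with overlapping plates. Of 13 degradation genes Syvn1 and Ubxn4 were higher, and of 18 ER entry genes 2 were higher, Sec61a1 (878 and 676 CPM) and Spcs3, and 1 was lower.

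Targets of ATF4 and CHOP included 3 lower and 1 higher of 14, beside 15.1% and 9.61% of all measured genes. The size rule was met as lower by 6.35% of all measured genes and as higher by 3.73%. By this rule Ppp1r15a was lower, at 46.4 CPM in IgAN and 95.1 CPM in Control, as was Nars, an asparaginyl-tRNA synthetase (76.3 and 189 CPM). Phgdh, of serine synthesis, was higher (24.2 and 7.44 CPM). Immediate early genes were lower in the same cells, 10 of 12 without overlap and a median log2 of -2.07, with a summed level of 4123 CPM in IgAN (plates at 3904 and 4047) and 6898 CPM in Control (4110 to 10040). Endothelial markers in them summed to 3021 CPM in IgAN and 3829 CPM in Control, all 10 with reads, and fibroblast markers to 608 and 100 CPM. The part of these in the members' differences was not tested.

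**Figure D3:**
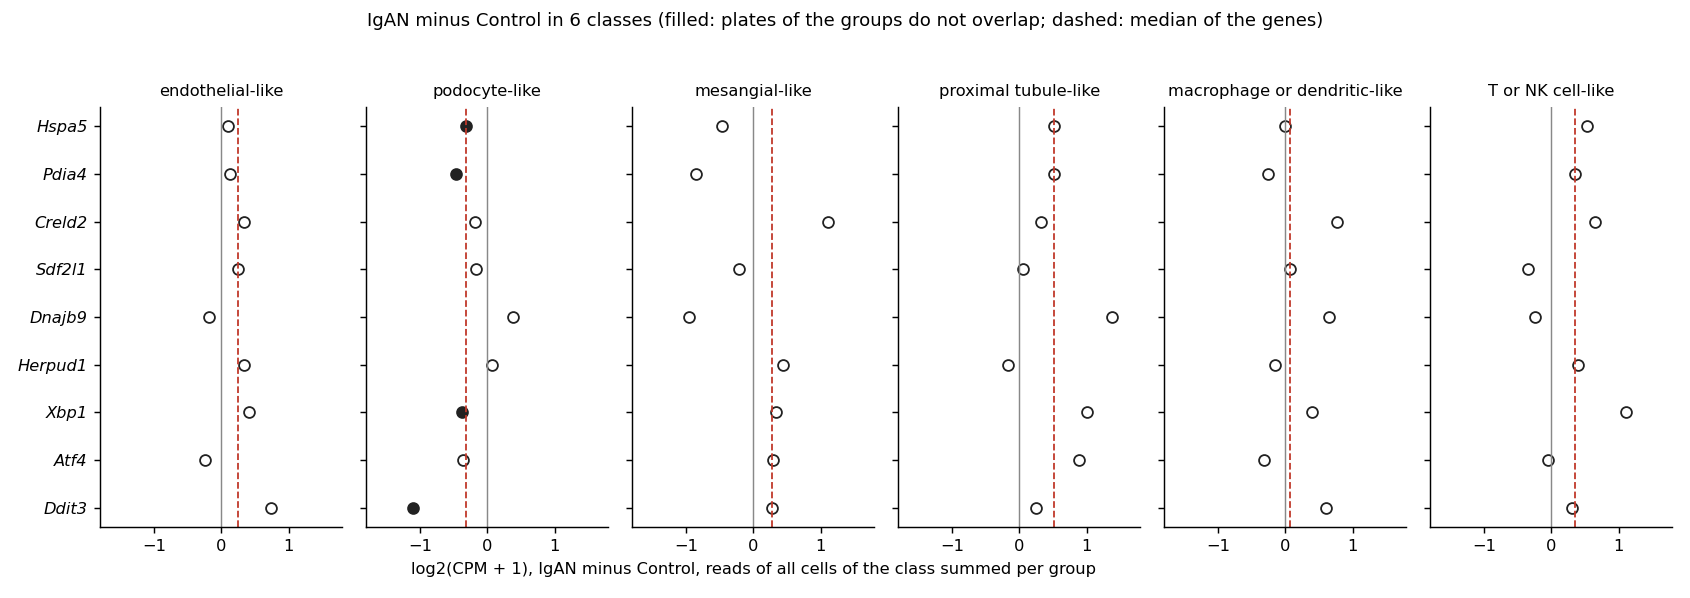
Difference in log2(CPM + 1), IgAN minus Control, of 9 members in 6 cell classes; each point is a member, filled where the plates of the groups do not overlap and open where they do, and the dashed red line is the median of the members. The 4 filled points are Hspa5, Pdia4, Xbp1 and Ddit3 in podocyte-like cells, all below 0.

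In endothelial-like cells, the most numerous class, 7 of 9 members had differences above 0, and the members' median log2 was 0.25, beside 0.01 over 9679 genes. Of the 9 members 0 were called, beside 1.52% of genes called higher (0.775% by the size rule) and 2.22% called lower (0.744%). Ddit3 came closest. It was at 62.6, 78.4, 64.7, 94.8, 69.9 and 141 CPM on the IgAN plates and at 34.9, 53.2, 68.0 and 42.3 CPM on the Control plates, and in sum at 78.3 CPM (77.3 to 79.4) in IgAN and 46.7 CPM (45.7 to 47.7) in Control, log2 0.73. Control plate 321, at 68.0 CPM, was the only Control plate that reached the IgAN range, and without it the groups did not overlap and the log2 was 0.82.

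Xbp1 was at 281, 285, 312, 340, 358 and 456 CPM on the IgAN plates and 232, 247, 250 and 319 CPM on the Control plates, log2 0.41, again with plate 321 as the Control plate inside the IgAN range. Herpud1 had a log2 of 0.34, Creld2 0.33, Sdf2l1 0.25, Pdia4 0.13 and Hspa5 0.10 (759.5 CPM in IgAN and 708 CPM in Control). Atf4 was at 412 CPM in IgAN and 490 CPM in Control, log2 -0.25, but IgAN plate 322 stood at 122 CPM while the other IgAN plates had 467 to 638 CPM and the Control plates 455 to 521 CPM. Without plate 322 the difference was 0.08.

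The low Atf4 of plate 322 was seen in each of the 4 large endothelial clusters (64.0 to 139 CPM). In the cluster of 409 IgAN and 12 Control cells, IgAN plate 313, with 16 cells, was lower still (87.9 against 139 CPM). Plate 322 was also the lowest IgAN plate in macrophage or dendritic-like (144 CPM) and T or NK cell-like cells (223 CPM), though not in mesangial-like cells (251 CPM). It is also the most deeply read plate. The endothelial clusters were unevenly shared: 424 IgAN and 71 Control cells in 1 cluster, 38 and 419 in another, 409 and 12, and 118 and 106, with a small cluster of 6 and 6 cells that held none of plate 322. Ddit3 was at 80.3 CPM in IgAN and 40.7 CPM in Control in the first of these, 29.3 and 45.4 in the second, 82.6 and 104.5 in the third and 70.0 and 49.1 in the fourth, and 137 and 66.0 in the small cluster. The direction of Ddit3 therefore differed between clusters.

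Trib3 was below the measurement limit in endothelial-like cells, with 313 reads in 13 of 995 IgAN cells and 1195 reads in 19 of 614 Control cells, or 1.20 and 6.98 CPM. Plates had 0 to 4.62 CPM in IgAN and 5.24 to 10.1 CPM in Control. Among list genes of these cells Eif2ak2, a kinase of eIF2alpha activated by double-stranded RNA, was higher without overlap (38.5 CPM in IgAN and 18.8 CPM in Control), and Wars, a tryptophanyl-tRNA synthetase, lower (234 and 322 CPM). Over all measured genes of this class 1.52% were called higher and 2.22% lower.

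In mesangial-like cells the members split, 5 positive and 4 negative, with a median log2 of 0.28 beside 0.02 over all genes, and 0 of 9 were called, beside 1.45% called higher (1.26% by the size rule) and 1.94% called lower (1.49%). Creld2 was at 95.1 CPM in IgAN and 43.7 CPM in Control (log2 1.10), with overlapping plates of 1.61 to 209 CPM in IgAN and 0.714 to 103 CPM in Control. Dnajb9 was at 45.9 CPM in IgAN and 90.1 CPM in Control (-0.96), with plates at 56.0, 66.4, 32.6, 49.9, 15.0 and 47.0 CPM in IgAN and 60.2, 84.6 and 80.6 CPM in Control. Only IgAN plate 315 and Control plate 314 crossed, and without either the groups did not overlap. Pdia4 was at 145 and 263.5 CPM (-0.86) and Hspa5 at 681 and 938 CPM (-0.46), with overlap in both. By the size rule the degradation gene Derl2 was higher (114 CPM in IgAN and 30.1 CPM in Control) and the tRNA synthetase Cars lower. Of 115 IgAN cells 42 carried at least 3 markers of another class at 25% of that class's own level or more, and 4 of 51 Control cells did.

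In proximal tubule-like cells 8 of 9 members were positive, with a median log2 of 0.52 beside 0.32 over all genes, and 0 of 9 were called, beside 7.65% called higher (6.71% by the size rule) and 3.63% called lower (2.24%). Dnajb9 was at 92.1 CPM in IgAN and 34.9 CPM in Control (log2 1.38), Xbp1 at 254 and 126 CPM (1.00), Atf4 at 272 and 147 CPM (0.89) and Hspa5 at 752 and 524 CPM (0.52). Each of these overlapped between plates; Atf4, for example, was at 290, 78.0, 220 and 392 CPM in IgAN and 206, 95.2 and 154 CPM in Control, with IgAN plate 316 the lowest of all. Endothelial markers summed to 5810 CPM in IgAN (plates 263.5 to 10380) and 261 CPM in Control (195 to 364.5), with all 10 detected in both, and immediate early genes had a median log2 of 3.32. Without the 54 of 146 IgAN cells and 0 of 85 Control cells that carried such markers of another class, the members' median was -0.20.

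Macrophage or dendritic-like cells had a members' median log2 of 0.06, equal to that of all genes, with 0 of 9 called, beside 0.939% called higher (0.737% by the size rule) and 0.848% called lower (0.454%). Hspa5 was at 1052 CPM in IgAN and 1050.0 CPM in Control, Ddit3 at 152 and 99.2 CPM (0.61) and Xbp1 at 759 and 579 CPM (0.39), the last 2 with overlapping plates. T or NK cell-like cells had a median of 0.34 beside 0.05, with 0 of 9 called, beside 0.572% called higher (0.466% by the size rule) and 1.53% called lower (1.25%). Xbp1 was at 351, 611, 183, 307, 360 and 550 CPM on the IgAN plates and 153, 100.4, 199 and 218 CPM on the Control plates, or 377 CPM (369 to 386) and 174 CPM (169 to 179) in sum, log2 1.11. IgAN plate 316, at 183 CPM, was the only IgAN plate within the Control range. Hspa5 was at 1216 and 842 CPM (0.53). Cells that carried markers of another class at 25% of its level were 12 of 93 IgAN and 1 of 128 Control T or NK cell-like cells, and 43 of 193 IgAN and 3 of 103 Control macrophage or dendritic-like cells. Without them the members' medians were 0.40 in T or NK cell-like and 0.24 in macrophage or dendritic-like cells, and 0 of 9 were called in either. Among list genes of T or NK cell-like cells, Pdia6 met the size rule as higher (330 CPM in IgAN and 161 CPM in Control). The degradation factor Edem1 met it as lower in the same class (29.2 and 179.5 CPM).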

How the data were processed

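Per the submitters' processing notes, the tools were Subread 1.4.6-p5 with featureCounts, SAMtools 0.1.18 and TopHat2 2.1.1, and the mouse build was GRCm38 (mm10). The authors deposited raw counts, whole numbers of reads per gene and cell, with no normalization. Not given in the sources used here are the annotation, the strand setting and any removal of cells or doublets; no doublet caller was run.

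The 3143 cells were clustered in scanpy 1.11.5 with leidenalg 0.10.2, and classes were named from marker genes. Reads of a class were summed by group or plate and scaled to CPM with exact Poisson intervals at 95%, which cover counting error only. Differences are log2(CPM + 1), IgAN minus Control. Classes were compared when 3 plates of each group held 10 cells, and podocyte-like cells in any case. With 1 sample per group no test was possible. Named genes were the members, list genes meeting the size rule, the 4 most abundant of a list, and the 3 genes most correlated with each member; list genes without plate overlap, Hyou1, Sil1 and Nupr1 were named after their values were seen. On simulated counts, with noise drawn separately for each gene and plate, the check covered recovery of the planted log2 differences. It set no limit on how often the size rule calls genes. The members and lists were chosen with earlier results of these data known.

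Positions are from GENCODE vM21 and promoters from RefSeq on GRCm38.p6, which held all 10 members. Alternatives covered clustering, scaling, filters, pseudocount, cells with markers of another class and leaving out each plate; removing cells with at least 3 such markers at 25% of that class's level was chosen after seeing the data. Python 3.11.15, numpy 2.4.6, scipy 1.17.1, pandas 2.3.3 and matplotlib 3.10.9 were used.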

Additional observations from a re-analysis of the deposited data

Results flagged for a closer look

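Of 90 sets of plates, 1 for each member, class and group with enough plates, 6 had a highest or lowest plate far from the others by Dixon's criterion, and chance gives such a plate in about 1 in 20 sets. Plate 322 of IgAN held 3 of them. Its Atf4 in endothelial-like cells was 122.2 CPM, with the nearest IgAN plate at 466.7 CPM. Its Sdf2l1 was 113.5 CPM in mesangial-like cells, with the nearest at 38.0 CPM, and 358.1 CPM in macrophage or dendritic-like cells, with the nearest at 189.3 CPM.

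Ddit3 in proximal tubule-like cells of IgAN was 2.48 CPM on plate 316, with the nearest plate at 57.4 CPM. Pdia4 in macrophage or dendritic-like cells of Control was 239.8 CPM on plate 321, with the nearest at 92.9 CPM. Hspa5 in B cell-like cells of Control was 573.5 CPM on plate 326, with the nearest at 961.5 CPM.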

How the results depend on the processing

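No paired analysis was possible because each group is 1 sample and the plates carry no pairing between groups. The members' median log2 in endothelial-like cells was 0.065 with equal weight for plates, in place of 0.25. In those cells 1 member did not overlap with no low filter, at resolution 1.5 or with 1000 variable genes, and 2 did not (Ddit3 and Xbp1) without cells carrying markers of another class at 10 CPM, in place of 0. That removal left 0 cells in the other 5 compared classes and gave no value there. In podocyte-like cells 2 members did not overlap with scaling by the median of ratios, where Hspa5 and Xbp1 were lost, in place of 4. Without cells carrying markers at 25% of another class's level, the proximal tubule-like median was -0.20, in place of 0.52, and the podocyte-like count was 3. Leaving out 1 plate at a time gave counts of 0 to 2 in endothelial-like, mesangial-like and proximal tubule-like cells, 0 to 1 in T or NK cell-like as in macrophage or dendritic-like cells, and 4 to 6 in podocyte-like cells. The medians ran from 0.14 to 0.34 in endothelial-like, -0.42 to -0.20 in podocyte-like, 0.08 to 0.61 in mesangial-like, 0.38 to 0.65 in proximal tubule-like, 0.03 to 0.26 in macrophage or dendritic-like and 0.25 to 0.41 in T or NK cell-like cells. Fewer plates must lie apart when 1 is left out, so calls are then easier to reach. The cause of these changes was not tested. Under no alternative did a called value change sign. The podocyte-like comparison rests on 39 IgAN cells.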

Other observations

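In distal tubule or collecting duct-like cells, which had 3 IgAN and 2 Control plates and so fell outside the comparison, Atf4 was at 216, 329 and 606 CPM on the IgAN plates and 97.9 and 70.6 CPM on the Control plates. Hspa5 was at 716, 778 and 704 CPM on the IgAN plates and 1015 and 958.5 CPM on the Control plates, and Pdia4 at 126, 63.4 and 70.0 CPM and at 342.5 and 269 CPM, so that Atf4 was higher and Hspa5 and Pdia4 lower without overlap. Of 9896 measured genes in this class, 1437 were higher and 897 lower without overlap between so few plates. Endothelial markers in those cells summed to 6396 CPM in IgAN and 724 CPM in Control, and their part in the differences was not tested. These cells were singled out after their values were seen.

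B cell-like cells had no IgAN plate with 10 cells. Herpud1 was at 1613 CPM in the 26 IgAN cells and 1063 CPM in the 117 Control cells, with no plate spread to set it against. The other measured members lay on both sides: Ddit3 (log2 0.26) and Pdia4 (0.15) were above 0, and Sdf2l1 (-1.38), Dnajb9 (-0.56), Atf4 (-0.52), Hspa5 (-0.27), Xbp1 (-0.26) and Creld2 (-0.18) below it, with a median of -0.26 over the 9. In the same class the other genes of ER-associated degradation Syvn1 and Edem1 were at 647 and 212 CPM over both groups, and the sensor Eif2ak3, which encodes PERK, at 104 CPM.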
